A study of Macaca mulatta with 12 samples.

Results

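The response of rhesus macaque (Macaca mulatta) blood macrophages to an 8 h inflammatory stimulus was measured 19 months after transplant, as the difference between stimulated (Late ACT, 3 libraries) and unstimulated (Late CTL, 3 libraries) cells. These are 6 of the 12 RNA-seq libraries of the series. The other 6 are the same pair of groups at 4.5 months, Early ACT and Early CTL, with 3 libraries each. Stimulated wells held 250000 cells with lipopolysaccharide (LPS) at 100 ng/ml and interferon-gamma at 20 ng/ml, per the labels' protocol; the separate label for the treatment mentions only LPS. Cells of all 4 groups came from animals transplanted with their own CD34+ stem and progenitor cells, edited by CRISPR/Cas9, in a model of TET2-mutant clonal hematopoiesis. Unstimulated cells therefore share the transplant, and neither the share of edited cells nor the animals' ages are given in the labels used here. The cells were sorted as CD14+CD16-CD163+. Whether the 3 libraries of a group come from different animals or from wells of 1 animal is not labelled, and the p-values then cover the spread among libraries alone, possibly a technical one.

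LPS is bound by CD14 and MD-2 and signals through the receptor TLR4. From there the adaptor MyD88 leads to NF-kB and the genes of inflammatory cytokines and chemokines, while the adaptor TRIF leads to interferon-beta and, through it, to antiviral interferon-stimulated genes. Interferon-gamma signals through JAK kinases to genes such as IRF1, CXCL9, CXCL10 and those of antigen processing. Blood macrophages and monocytes are a main source of IL-1 beta, TNF and IL-6 when stimulated in this way.

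Depth was ordered with stimulation: every Late ACT library held more counts than any Late CTL library. Late ACT libraries held 7756530, 7653575 and 9270554 counts and Late CTL libraries 3910680, 7350214 and 6483122 counts. Early libraries held 4602109 to 12972505 counts. Library Late CTL 3 stood apart within its group: the chi-square per degree of freedom between its counts and those of the other Late CTL libraries was 10.5 and 10.8, against 3.35 between Late CTL 1 and 2 and 2.77 to 5.17 among Late ACT libraries. Library Early ACT 1 stood further apart from its group (28.4 and 29.3), and enters here only through the shared estimate of spread and the early response. No 2 libraries of a group agreed within sampling noise. Levels are given as CPM, which divides a gene's counts by the total of its library, and fold changes come from edgeR's quasi-likelihood test with TMM scaling.

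The late response was small. In the fit of all 12 libraries, edgeR's quasi-likelihood test called 0 of 11826 genes between Late ACT and Late CTL at an adjusted p under 0.05 (0.0%, Benjamini-Hochberg), with 527 genes (4.46%) at an unadjusted p under 0.05 and 15 called by DESeq2. In the 6 late libraries alone it called 10 of 11344 genes (0.0882%), of which 9 rose (0.0793%) and 1 fell (0.00882%). The same 12-library fit called 855 genes (7.23%) between Early ACT and Early CTL, 541 higher (4.57%) and 314 lower (2.66%), and 167 genes (1.41%) for the difference between the late and the early response, 145 of them (1.23%) with the late response the more negative. With Early ACT 1 left out, the 12-library fit called 29 genes on late stimulation, 19 higher and 10 lower, which include all 10 genes of the fit of 6 libraries. With any other library left out, the 12-library fit called 0 to 2 genes. Without Late CTL 3, the fit of late libraries alone called 58 genes, again including those 10, and 3 to 14 with another late library left out. The fits of late libraries with 1 left out were added after the data were seen. All these fits share libraries, so finding the 10 again is not independent support.

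Among 7789 genes with a mean of 5 CPM or more in the late libraries, all Late ACT libraries lay above all Late CTL libraries for 286 genes (3.67%) and below them for 686 genes (8.81%), 12.5% in either direction. The split depends on the scaling. Higher genes made up 29.4% of the genes without overlap on plain CPM, but 46.7% (419 higher, 479 lower) after TMM scaling and 44.1% after upper-quartile scaling. With every library thinned to the smallest total, which removes the difference in depth, 922 of 7783 genes did not overlap, 294 higher and 628 lower. At 4.5 months the groups did not overlap for 47.6% of 7707 such genes on plain CPM (4.71% higher, 42.9% lower) and for 30.8% after TMM scaling. An exact permutation test of 3 libraries against 3 cannot go below p = 0.1, so the absence of overlap is a description.

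The genes without overlap differed by little. Their median log2 fold change was 0.33 in size for the 286 higher genes and 0.23 for the 686 lower ones. Only 7 of the 7789 genes differed by 2-fold or more at 19 months, against 180 of the same genes at 4.5 months. The spread of log2 fold changes over these genes was 0.20 (SD) late and 0.39 early.

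Genes that had changed at 4.5 months had, at the median, a small late response in the same direction. The 541 genes that rose at 4.5 months had a median log2 fold change of 0.08 late and 0.74 early, and the median ratio of the late to the early value was 0.098. Their late value was above 0 for 396 genes and below 0 for 145. Of the 511 of them with 5 CPM or more, all Late ACT libraries were higher for 17.2% and lower for 3.91%, against 2.78% and 8.44% of the genes not called early. After TMM scaling the shares were 23.1% and 2.74%, against 4.25% and 5.8%. The 314 genes that fell early had a median of -0.13 late and -0.71 early. Of 264 with 5 CPM or more, all Late ACT libraries were higher for 3 genes (1.14%) and lower for 74. Of the genes without overlap late, 195 of the 286 higher ones and 592 of the 686 lower ones had not been called early. Among all 7789 genes with 5 CPM or more it was 7014, a larger share than either. Genes that rose early were also more abundant in the late libraries than those not called (median 85.8 against 25.95 CPM), and the part of this in the shares was not tested. By the test of the difference, the late log2 fold change was below the early one for 142 of the 541 genes that rose, beside 1.23% of all genes tested. It was above the early one for 21 of the 314 that fell, beside 0.186%. These genes were chosen on their early value, which also enters the ratio and the difference. The choice itself thus favours a late value closer to none, and its part in these counts was not tested.

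**Figure D1:**
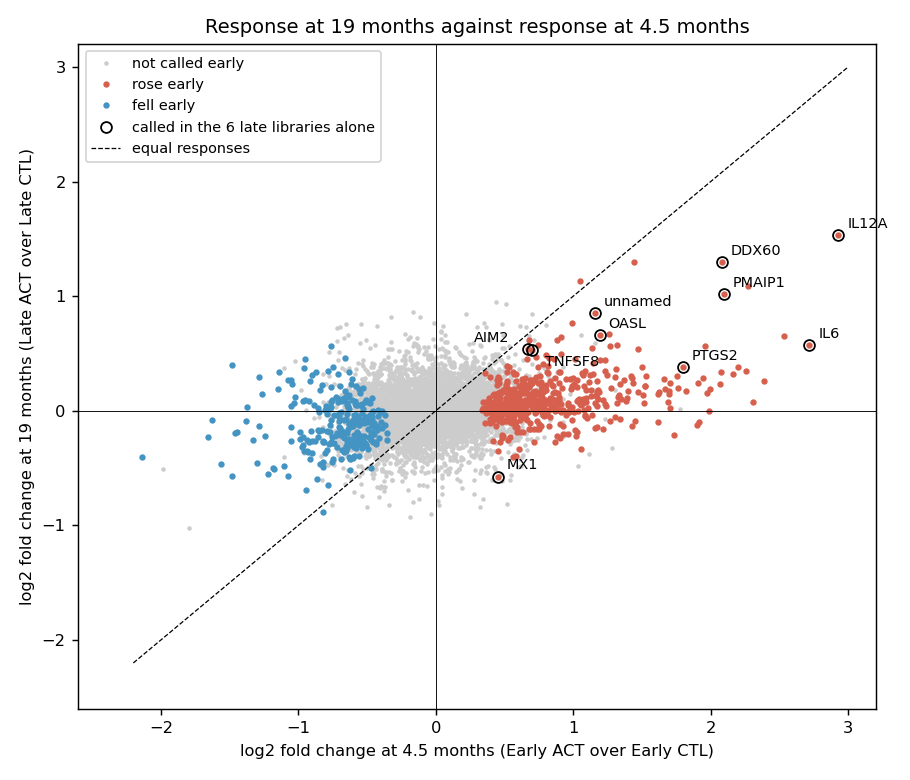
Each point is a gene with a mean of 5 CPM or more in the late libraries, placed by its log2 fold change at 19 months (Late ACT over Late CTL, vertical axis) and at 4.5 months (Early ACT over Early CTL, horizontal axis). Genes that rose or fell early were chosen on the horizontal axis; most of them lie close to 0 on the vertical axis and far from the dashed line of equal responses, and the 10 circled genes are those called in the 6 late libraries alone.

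PMAIP1, which encodes NOXA, a protein that promotes cell death by binding BCL-2 family members, had the smallest p in the fit of late libraries alone. It stood at 231, 199.9 and 222 CPM in Late ACT libraries and 107, 117 and 106 CPM in Late CTL libraries, with no overlap. Its log2 fold change was 1.02 ± 0.10 (SE, adjusted p = 2.14e-07), or 2.03-fold, in the 6 late libraries alone and 1.01 ± 0.19 (adjusted p = 0.069) in all 12. The early response was 2.10 ± 0.19, and the late response was smaller by 1.08 (difference -1.08 ± 0.27, adjusted p = 0.038). The gene lies on chromosome 18 from 49407919 to 49411019 (build Mmul_8.0.1). AIM2, a sensor of DNA in the cytoplasm that assembles an inflammasome, was at 279.6, 300.3 and 269.6 CPM in Late ACT and 216, 196 and 188 CPM in Late CTL libraries. It rose by 0.54 ± 0.09 in the late libraries alone (adjusted p = 0.0043), close to its early log2 fold change of 0.67 ± 0.15, and the difference of -0.14 ± 0.21 did not pass.

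Members of the cytokine and TNF families were also among the 10. TNFSF8, the ligand of CD30, was at 464.5, 452 and 437 CPM in Late ACT libraries and 326, 316 and 319 CPM in Late CTL libraries. The 2 groups were far apart relative to their spread. Its log2 fold change, for a gene on chromosome 15 from 24448224 to 24489426, was 0.53 ± 0.08 late (adjusted p = 0.0017, late libraries alone) and 0.70 ± 0.10 early, with a difference of -0.17 ± 0.14. IL12A, the p35 subunit of IL-12, was low, at 16.4, 10.8 and 10.9 CPM in Late ACT and 3.58, 5.17 and 4.47 CPM in Late CTL libraries. The gene lies on chromosome 2 from 134757099 to 134763586. Its change of 1.53 ± 0.26 (adjusted p = 0.0057), or 2.89-fold, was the highest fold change among the genes without overlap. IL6, the gene of a cytokine of fever and the acute phase on chromosome 3 from 85553880 to 85559671, was at 130.5, 108 and 121 CPM in Late ACT and 82.3, 79.6 and 85.3 CPM in Late CTL libraries. It rose by 0.58 ± 0.10 late (adjusted p = 0.012), against 2.72 ± 0.13 early, and the difference of -2.14 ± 0.17 passed (adjusted p = 9.17e-09).

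Antiviral genes moved in both directions. DDX60, a helicase of the antiviral response on chromosome 5 from 168437914 to 168543117, was at 32.4, 30.3 and 30.4 CPM in Late ACT and 12.0, 15.1 and 11.4 CPM in Late CTL libraries, a change of 1.30 ± 0.17 (adjusted p = 0.000125, late libraries alone). OASL, a relative of the oligoadenylate synthetases on chromosome 11 from 121274193 to 121294071, was at 59.8, 54.6 and 62.5 CPM in Late ACT and 36.6, 34.4 and 43.5 CPM in Late CTL libraries, a change of 0.66 ± 0.13 (adjusted p = 0.03). MX1, a GTPase that blocks viruses, encoded on chromosome 3 from 5221826 to 5251031, was the one gene that fell. It was at 56.2, 52.4 and 56.8 CPM in Late ACT libraries and 78.0, 88.0 and 85.8 CPM in Late CTL libraries, a log2 fold change of -0.57 ± 0.11 (adjusted p = 0.03). At 4.5 months MX1 rose by 0.45 ± 0.11 (adjusted p = 0.0078), and the difference of -1.02 ± 0.15 passed (adjusted p = 0.000196), so its direction differed between the times.

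PTGS2, the inducible cyclooxygenase of prostaglandin synthesis on chromosome 1 from 180538285 to 180548777, was the most abundant of the 10. Its levels were 10990, 9772 and 10024 CPM in Late ACT and 8382, 8577 and 7223 CPM in Late CTL libraries. It rose by 0.39 ± 0.08 late (adjusted p = 0.046, late libraries alone) and by 1.80 ± 0.15 early. The tenth gene, ENSMMUG00000047385, has no name in the sources used here and was at 29.01, 35.3 and 35.5 CPM in Late ACT and 25.6, 17.4 and 14.8 CPM in Late CTL libraries (0.86 ± 0.18, adjusted p = 0.046). All 10 genes rose at 4.5 months, beside 4.57% of all genes tested. For 4 of the 10 (PMAIP1, IL6, MX1 and PTGS2) the late response was lower by the test of the difference, beside 1.23%. PMAIP1, DDX60 and TNFSF8 passed in all 9 alternatives of the fit of late libraries, which leave out each library in turn, change the scaling or add a replicate term. IL12A passed in 7, AIM2 in 6, IL6 in 5, MX1 and ENSMMUG00000047385 in 4, OASL in 3 and PTGS2 in 2 of the 9. None of the 10 passed in the fit of all 12 libraries, and few of its 18 alternatives, DESeq2 among them, called them. Of these 18, PMAIP1 and DDX60 passed in 5, ENSMMUG00000047385 in 4, and IL12A and OASL in 3. TNFSF8, IL6 and MX1 passed in 2, and AIM2 and PTGS2 in 1.

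**Figure D2:**
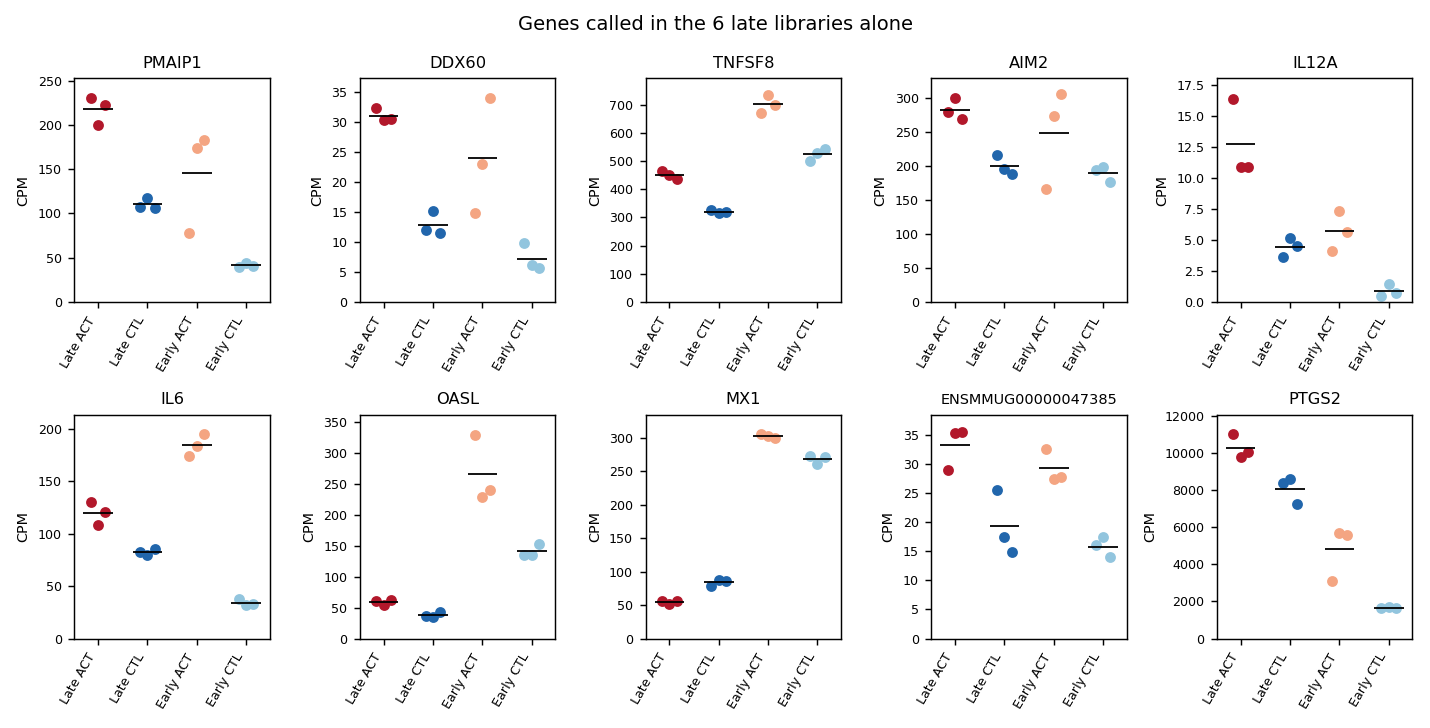
Level (CPM, linear axis from 0) of the 10 genes called in the 6 late libraries alone, ordered by p, in each library (points) of the 4 groups, with the group mean as a line. Late ACT and Late CTL points do not overlap for any of the 10, and MX1 is the one gene with Late ACT points below Late CTL points.

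Inflammatory cytokine genes were already abundant without stimulation at 19 months. The list had 18 tested members, of which 16 rose early, beside 4.57% of all genes tested. In the late libraries alone 2 were called, IL6 and IL12A. All Late ACT libraries were higher for 4 of 17 members with 5 CPM or more (IL1A, IL6, IL12A and CSF3) and lower for none, beside a background of 3.67% higher and 8.81% lower. After TMM scaling 7 of 17 were higher, with TNF, IL23A and TNFSF15 added, and none lower, beside 5.39% and 6.16%. The median log2 fold change of the list was 0.12 late and 1.68 early, against 0.00 for all genes tested at both times. The difference of the responses was called, with the late one lower, for 12 members, beside 1.23% of all genes tested.

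IL1B, the gene of the inflammasome product IL-1 beta, was at 47100, 44283 and 46134 CPM in Late ACT libraries and 40743, 37173 and 46829 CPM in Late CTL libraries. Late CTL 3 lay within the range of Late ACT, so the groups overlapped, and the change of 0.17 ± 0.11 did not pass. Early ACT libraries had 45285, 38592 and 39012 CPM and Early CTL libraries 13573, 13852 and 14733 CPM, a rise of 1.82 ± 0.11 (adjusted p = 7.9e-12). The difference of the responses was -1.65 ± 0.15 (adjusted p = 9.72e-08). TNF, a central inflammatory cytokine, was at 1316, 1384 and 1444 CPM in Late ACT, 1116, 1131 and 1344 CPM in Late CTL, 1620, 1144 and 1174 CPM in Early ACT and 420.5, 420.4 and 435 CPM in Early CTL libraries. Its late change was 0.24 ± 0.13 and its early change 1.91 ± 0.13. Summed over the 19 cytokine genes in the table, 52115 to 55541 CPM were found in Late ACT and 44435 to 54274 CPM in Late CTL libraries, against 45075 to 50910 CPM in Early ACT and 15899 to 17040 CPM in Early CTL libraries. IL1B alone made up most of these sums, and the Late CTL sums lay in or near the range of Early ACT. Not every member did so: IL6 averaged 82.4 CPM in Late CTL and 184 CPM in Early ACT libraries, and CSF3 averaged 590 CPM in Late CTL and 816 CPM in Early ACT libraries. Without Late CTL 3, edgeR's test in the late libraries alone called IL1B (0.27 ± 0.05, adjusted p = 2.46e-05), TNF (0.33 ± 0.06, adjusted p = 6.23e-05) and CSF3 (0.29 ± 0.07, adjusted p = 0.0071), the gene of the granulocyte growth factor G-CSF.

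Chemokine genes were counted in the same way. All Late ACT libraries were higher for 4 of 9 members with 5 CPM or more (CXCL2, CCL2, CCL5 and CCL7) and lower for none, beside 3.67% and 8.81% of all such genes. After TMM scaling 5 of 9 were higher, with CCL3 added. None of the 10 tested passed in either late fit. CXCL2, which attracts neutrophils, was at 12650, 11723 and 11640 CPM in Late ACT and 10318, 11079 and 10877 CPM in Late CTL libraries (0.19 ± 0.13), against 4639, 7589 and 7945 CPM in Early ACT and 2039, 2105 and 1973 CPM in Early CTL libraries (1.99 ± 0.14). Every late library exceeded every early one, and the time of sampling cannot be told apart from differences in library handling, which the labels do not describe. CCL2, which attracts monocytes, was at 189, 172 and 163 CPM in Late ACT and 130.4, 144 and 158 CPM in Late CTL libraries. CCL5, a chemokine for T cells, was at 12.1, 11.5 and 12.9 CPM in Late ACT and 8.95, 7.62 and 8.79 CPM in Late CTL libraries, the largest late change of the list at 0.57 ± 0.20 (unadjusted p = 0.0084). CCL3, a chemokine for monocytes and other leukocytes, overlapped through Late CTL 3, at 2349, 2502 and 2406 CPM in Late ACT and 1882, 2010 and 2409.5 CPM in Late CTL libraries. With that library left out it was called at 0.35 ± 0.06 (adjusted p = 4.29e-06). The list's median was 0.13 late and 1.53 early. For 6 members the difference of the responses was called, with the late one lower, beside 1.23% of all genes tested.

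**Figure D3:**
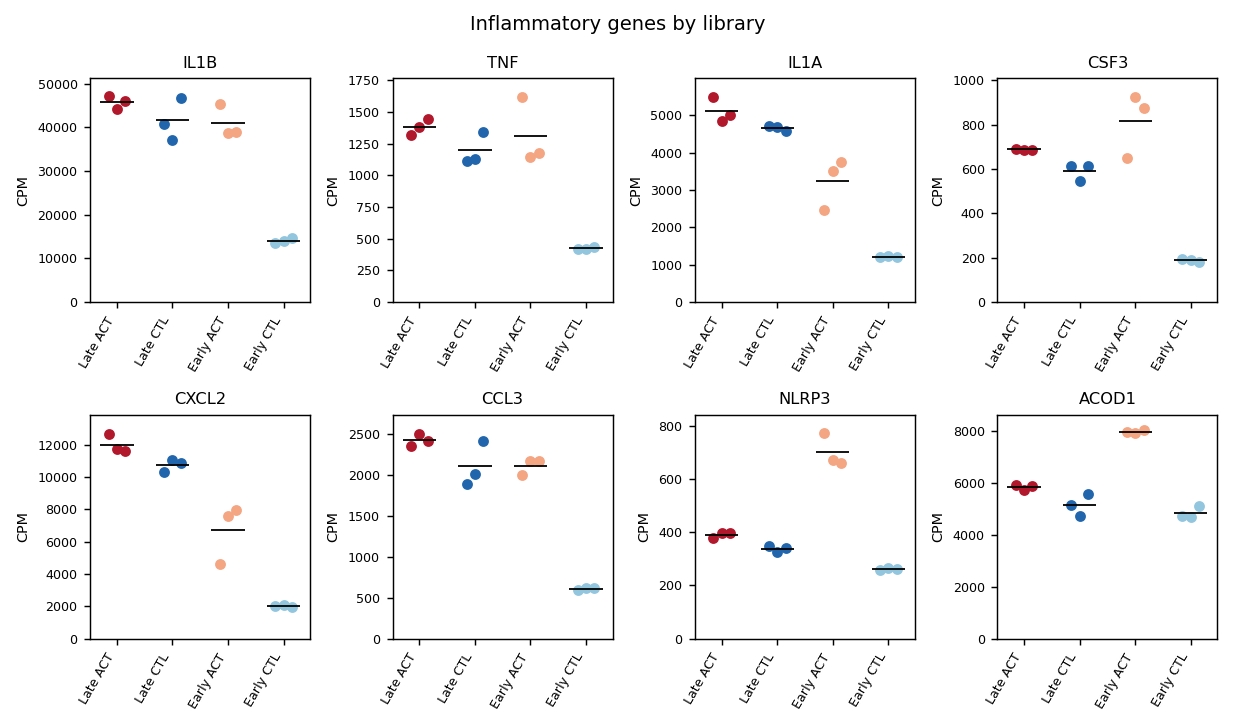
Level (CPM, linear axis from 0) of 8 inflammatory genes in each library (points) of the 4 groups, with the group mean as a line. Late ACT and Late CTL lie close together for each gene, while Early ACT lies above Early CTL; Late CTL levels of IL1B, TNF and CCL3 are near those of Early ACT, whereas those of NLRP3 and ACOD1 are nearer to Early CTL.

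The inflammasome sensor NLRP3 and the itaconate enzyme ACOD1 had a different baseline. NLRP3 was at 378, 397 and 395 CPM in Late ACT and 346.5, 325 and 339.7 CPM in Late CTL libraries, and at 774, 671 and 660.5 CPM in Early ACT and 256, 265 and 262 CPM in Early CTL libraries. Its log2 fold change was 0.24 ± 0.11 late, without a call, and 1.70 ± 0.11 early, with a difference of -1.46 ± 0.15 (adjusted p = 5.7e-07). ACOD1 was at 5937, 5735 and 5872 CPM in Late ACT and 5155, 4723 and 5596 CPM in Late CTL libraries. Its change was 0.21 ± 0.10 late and 1.00 ± 0.10 early (difference adjusted p = 0.0023). Both genes were higher in every Late ACT library than in any Late CTL library.

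Interferon-stimulated genes were split. Of 29 members of the type I list with 5 CPM or more, all Late ACT libraries were higher for 7 (IFIT2, IFIT3, ISG20, OASL, IFI44, RIGI and DHX58) and lower for 8 (MX1, MX2, IFIT5, OAS3, IFI35, IRF9, XAF1 and ADAR), beside a background of 3.67% and 8.81%. After TMM scaling the counts were 7 and 7, without OAS3. The late libraries alone called OASL up and MX1 down, and the fit of all 12 called no member on late stimulation. The list's median log2 fold change was -0.15 late and 0.44 early. At 4.5 months 15 of the 36 tested members rose, beside 4.57% of all genes tested, and none fell. The late log2 fold change was below the early one by the test of the difference for 7, beside 1.23%. These 7 include MX1, MX2, IFIT5 and IRF9, whose late values were negative.

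The members that were higher late include a receptor for viral RNA. RIGI, the sensor RIG-I, was at 120.5, 123 and 109.8 CPM in Late ACT and 99.7, 101 and 84.8 CPM in Late CTL libraries (0.34 ± 0.13). IFIT3, which binds partners that recognise viral RNA, was at 94.0, 83.4 and 90.9 CPM in Late ACT and 66.0, 60.1 and 74.5 CPM in Late CTL libraries (0.45 ± 0.12). ISG20, an RNA exonuclease, was at 199, 202 and 198.5 CPM in Late ACT and 136, 162 and 193 CPM in Late CTL libraries (0.32 ± 0.13), with Late CTL 3 close to the stimulated level. IFI44 was at 15.3, 10.8 and 16.4 CPM in Late ACT and 7.42, 6.53 and 8.95 CPM in Late CTL libraries, the highest late log2 fold change of the list at 0.93 ± 0.29. Of these 7, all but IFI44 also rose early.

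Among the members that were lower late, MX2, a relative of MX1, was at 57.1, 60.2 and 67.6 CPM in Late ACT and 82.8, 82.0 and 85.0 CPM in Late CTL libraries (-0.40 ± 0.11). IFIT5, an RNA-binding member of the IFIT family, was at 13.9, 10.1 and 11.6 CPM in Late ACT and 22.5, 17.3 and 16.4 CPM in Late CTL libraries (-0.60 ± 0.17). IRF9, the DNA-binding subunit of the complex that drives these genes, was at 178, 199.9 and 209.6 CPM in Late ACT and 250.3, 229.9 and 239.5 CPM in Late CTL libraries (-0.26 ± 0.12). Only MX1 passed in the late libraries alone. The difference between the responses passed for MX1, MX2 (-0.73, adjusted p = 0.012), IFIT5 (-0.88, adjusted p = 0.037) and IRF9 (-0.68, adjusted p = 0.038) among these 8. Without Early ACT 1, the fit of 12 libraries called IFIT2 (0.47 ± 0.10, adjusted p = 0.023) and IFIT3 (0.45 ± 0.09, adjusted p = 0.0079) up and MX2 (-0.40 ± 0.09, adjusted p = 0.023) down on late stimulation. Without Late CTL 3, the fit of late libraries alone called IFIT2 (0.59 ± 0.13), IFIT3 (0.55 ± 0.11), ISG20 (0.45 ± 0.08) and IFI44 (1.08 ± 0.26) up. IFNB1, the gene of interferon-beta itself, was under 2 CPM in every late library.

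**Figure D4:**
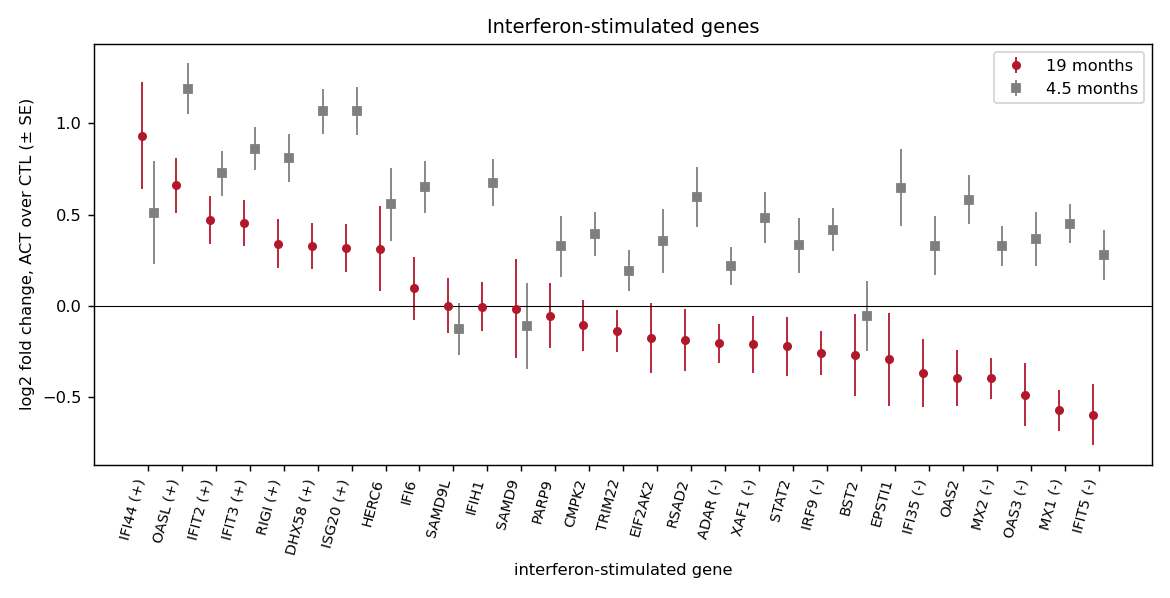
Log2 fold change of stimulated over unstimulated cells (± SE from edgeR's fit of 12 libraries) at 19 months (circles) and 4.5 months (squares) for the 29 type I interferon-stimulated genes with a mean of 5 CPM or more in late libraries, ordered by the late value. A plus or minus sign marks the 7 and 8 genes with all Late ACT libraries above or below all Late CTL libraries; the late values run on both sides of 0, while most early values are above it.

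Genes driven by interferon-gamma showed little response at either time. Of the 22 tested members of that list, none was called late and 3 rose early (IDO1, FCGR1A and GCH1), beside 4.57% of all genes tested. The list's median log2 fold change was -0.08 late and -0.01 early. All Late ACT libraries were higher for 1 (SOCS1) and lower for 2, among them PSMB8, of 19 members with 5 CPM or more, near the background of 12.5% in either direction. IRF1, an immediate target of the pathway, was at 379, 446 and 439.5 CPM in Late ACT and 442, 446 and 477 CPM in Late CTL libraries. CXCL10, a chemokine that interferon-gamma usually drives strongly, was at 2.45, 4.96 and 3.78 CPM in Late ACT, 6.90, 4.35 and 2.93 CPM in Late CTL, 12.6, 17.6 and 19.3 CPM in Early ACT and 34.7, 27.8 and 26.96 CPM in Early CTL libraries. CXCL9 was under 1 CPM in all late libraries. The treatment field names LPS and the protocol names both agents, and any link of this to the values above was not tested.

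The receptor pathway of LPS changed little. TLR4 itself was at 866, 784 and 815 CPM in Late ACT and 891, 872 and 779 CPM in Late CTL libraries (-0.01 ± 0.11), and CD14 overlapped as well, at 1376, 1449 and 1517 CPM in Late ACT and 1432, 1417 and 1754 CPM in Late CTL libraries (-0.05 ± 0.13). MYD88, the adaptor, was at 101, 102 and 100.3 CPM in Late ACT and 121, 143 and 146 CPM in Late CTL libraries, a change of -0.40 ± 0.13 that did not pass in either late fit (unadjusted p = 0.0038). It was called without Late CTL 3 or Early ACT 1. TICAM1, which encodes TRIF, and the amplifying receptor TREM1 were also lower in all Late ACT libraries, by 0.11 and 0.08 on the log2 scale. Of 19 members with 5 CPM or more, 1 was higher (ACOD1) and 3 lower, beside 3.67% and 8.81% of all such genes. After TMM scaling TICAM1 and TREM1 no longer stood apart, which left ACOD1 higher and MYD88 lower.

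NF-kB subunits and their feedback inhibitors showed values near 0. NFKBIA, the inhibitor that NF-kB induces, was at 6591, 6931 and 6962 CPM in Late ACT and 6466, 6653 and 7793 CPM in Late CTL libraries, a change of 0.00 ± 0.11 late against 0.79 early. TNFAIP3, which encodes the brake A20, was at 1670.5, 1609 and 1699 CPM in Late ACT and 1752, 1729.6 and 1646 CPM in Late CTL libraries (-0.01 ± 0.10), against 0.91 ± 0.10 early (difference adjusted p = 0.000196). Of 23 members, 1 was higher and 2 lower in all Late ACT libraries, near the background of 12.5% in either direction. After TMM scaling 2 were higher and 2 lower. At 4.5 months 8 rose, beside 4.57% of all genes tested. For 5 the late log2 fold change was below the early one by the test of the difference, beside 1.23%. Late CTL 3 lay far below the other Late CTL libraries for NFKBIZ (3762 against 7023 and 6803 CPM) and IRAK2 (419 against 876 and 829 CPM).

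Immediate-early factors without overlap were mostly lower in stimulated cells. All Late ACT libraries were lower for 6 of 20 members with 5 CPM or more (FOS, JUNB, EGR1, EGR2, ATF3 and KLF6) and higher for none on plain CPM, beside a background of 8.81% lower. After TMM scaling 5 were lower and 1, MAFF, was higher, beside 6.16% and 5.39%. FOS, a subunit of AP-1, was at 95.7, 109.9 and 99.45 CPM in Late ACT and 133, 157.5 and 140.1 CPM in Late CTL libraries. Its change was -0.46 ± 0.10 in the late libraries alone (adjusted p = 0.064) and -0.29 ± 0.11 early. It was called at -0.47 ± 0.08 without Early ACT 1 (adjusted p = 0.000472) and at -0.49 ± 0.09 in the late libraries without Late CTL 3 (adjusted p = 0.000231). EGR2, a factor of macrophage differentiation, was at 98.9, 98.6 and 97.9 CPM in Late ACT and 108, 123.5 and 118 CPM in Late CTL libraries (-0.21 ± 0.12). Of the mRNA decay regulators, ZFP36, ZFP36L1, RC3H2 and PDE4B were lower in all Late ACT libraries (4 of 11, beside 8.81%), but after TMM scaling only ZFP36L1 was.

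Members without overlap were found in further lists, to be read beside the same background of 3.67% higher and 8.81% lower. Among genes of matrix and proteases, MMP1, MMP10 and MMP12 were higher and 4 members lower, among them MMP9, MMP19 and PLAU, in all Late ACT libraries (15 with 5 CPM or more), and MMP9 did not stand apart after TMM scaling. PLAU, the plasminogen activator urokinase, was at 75.9, 72.3 and 81.3 CPM in Late ACT and 91.5, 95.1 and 118 CPM in Late CTL libraries (-0.38 ± 0.14). In eicosanoid synthesis, PTGS2 was the one higher member of 11, while ALOX5AP, LTA4H, PLA2G7 and TBXAS1, which mainly serve leukotriene, platelet-activating factor and thromboxane metabolism, were lower in all Late ACT libraries. TXNIP, a glucose-regulated inhibitor of thioredoxin, was at 63.9, 61.0 and 55.2 CPM in Late ACT and 79.5, 84.5 and 80.05 CPM in Late CTL libraries (-0.41 ± 0.12), and fell by 2.14 on the log2 scale early (difference 1.73 ± 0.16, adjusted p = 9.72e-08). CCNB1, a mitotic cyclin, was at 25.7, 30.2 and 26.9 CPM in Late ACT and 18.4, 21.6 and 17.1 CPM in Late CTL libraries (0.56 ± 0.18), without a call.

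For MHC class II, 3 of 6 members were lower in all Late ACT libraries (HLA-DRA, HLA-DMA and MAMU-DPA) and none higher, beside 8.81% and 3.67% of all such genes, and HLA-DRA no longer stood apart after TMM scaling. HLA-DMA, which edits peptides on class II molecules, was at 170, 182 and 182 CPM in Late ACT and 201, 195 and 248 CPM in Late CTL libraries (-0.24 ± 0.14). No member of this list was called at either time. The lists of costimulation, integrated and ER stress, lipid handling, metal transport and glycolysis had no call in the late libraries alone. Of members with 5 CPM or more, 0 were higher and 1 lower of 15 for costimulation, and 2 and 1 of 15 for stress. Lipid handling had 0 and 2 of 16, metal transport 1 and 1 of 12, and glycolysis 1 and 4 of 24, beside the same 3.67% and 8.81%. After TMM scaling metal transport had 1 higher and 0 lower, glycolysis 2 and 4, and the other counts held. Of the genes of cell death and survival, PMAIP1 and NLRP3 were higher and BAK1 and CASP8 lower in all Late ACT libraries (21 with 5 CPM or more), beside 3.67% higher and 8.81% lower, and BAK1 no longer stood apart after TMM scaling. The list of inflammatory metabolism enzymes had 3 higher members and 1 lower of 14, and the cell cycle list 2 higher and none lower of 9. The scavenger and resting macrophage list had 1 higher and 3 lower of 10, all beside the same 3.67% and 8.81%. After TMM scaling the counts were 4 and 1 for metabolism, 3 and 0 for cell cycle and 1 and 2 for scavenger genes, where CD163 no longer stood apart. The background was then 5.39% and 6.16%. In the stress list 13 of 18 members rose early, beside 4.57% of all genes tested. The late log2 fold change was below the early one by the test of the difference for 8, beside 1.23%. Among these 8 was ASNS, an asparagine synthetase (0.21 ± 0.18 late, 1.52 ± 0.19 early).

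**Figure D5:**
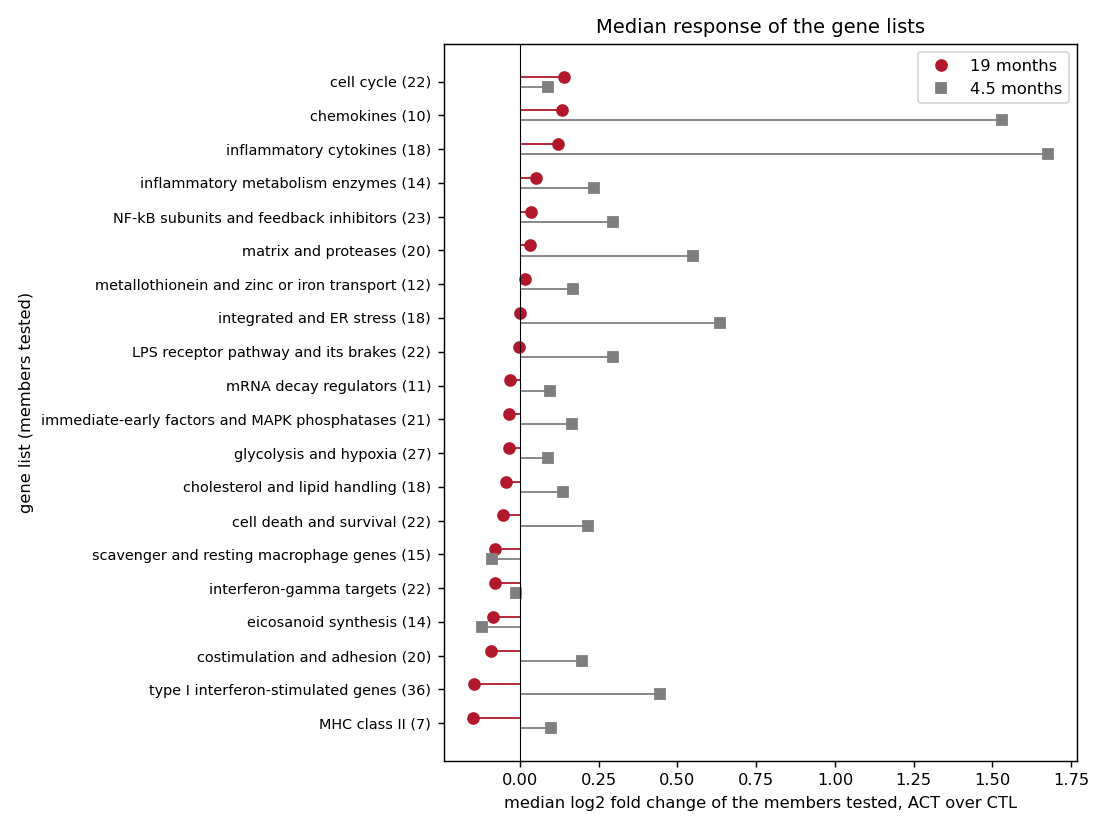
Median log2 fold change of the tested members of 20 gene lists on stimulation at 19 months (circles) and 4.5 months (squares), with the number of members tested in parentheses. Late medians lie between -0.15 and 0.14, while early medians reach 1.68 for inflammatory cytokines and 1.53 for chemokines.

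The largest fold changes without overlap were mostly in genes of low level. Of the 15 higher and 15 lower named genes that had a mean of 5 CPM or more and the largest changes, 13 and 15 had a mean under 20 CPM. IL12A, DDX60 and WDR27, a repeat protein of little-known function, led the higher genes. WDR27 was at 8.38, 9.80 and 10.8 CPM in Late ACT and 5.11, 3.54 and 3.70 CPM in Late CTL libraries (1.30 ± 0.27, adjusted p = 0.052 in the late libraries alone). STAT4, a transcription factor that IL-12 activates, was at 7.09, 6.66 and 6.26 CPM in Late ACT and 3.07, 3.81 and 4.94 CPM in Late CTL libraries (0.77 ± 0.28). FLG2, a protein of skin, led the lower genes, at 4.38, 6.14 and 4.31 CPM in Late ACT and 11.8, 7.48 and 11.9 CPM in Late CTL libraries (-1.03 ± 0.37), and P2RY2, a receptor for extracellular ATP and UTP, was at 9.67, 10.1 and 12.7 CPM in Late ACT and 21.0, 14.8 and 18.2 CPM in Late CTL libraries (-0.68 ± 0.19). Apart from IL12A, DDX60 and PMAIP1, none of these genes passed in the late libraries alone.

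TET2, the gene that the model is named for, was at 437, 418 and 420 CPM in Late ACT and 415, 427 and 417.5 CPM in Late CTL libraries, a change of 0.05 ± 0.11. Its level over the whole gene says nothing of the edited site. IL10, an anti-inflammatory cytokine, and SOCS3, a brake on cytokine signalling, overlapped between the late groups (0.05 ± 0.14 and 0.15 ± 0.12), as did the tryptophan enzyme IDO1 (0.06 ± 0.11).

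Markers of monocytes and macrophages were present in every late library. The 11 measured markers summed to 6467 to 6594 CPM in Late ACT and 6957 to 7546 CPM in Late CTL libraries, without overlap, mainly through LYZ at 3013 and 3471 CPM on average. CD163, used for sorting, was at 501.5, 557 and 571 CPM in Late ACT and 577, 606 and 607 CPM in Late CTL libraries (-0.10 ± 0.11). CSF1R, the receptor of the macrophage growth factor, was at 60.3, 79.7 and 73.6 CPM in Late ACT and 99.0, 93.3 and 85.8 CPM in Late CTL libraries (-0.35 ± 0.14). In such bulk samples fewer cells of a type and less RNA per cell cannot be told apart. Some markers of T cells (CD3E, CD3G), NK cells (KLRD1, NKG7) and B cells (CD79A, CD79B) each averaged under 1 CPM in both late groups. Others did not: the NK cell markers NCR1 and GZMB averaged 5 CPM or more over the late libraries. No B cell marker reached 5 CPM, though BANK1, BLK and MS4A1 had counts enough to be tested. The T cell list was carried by IL7R, at 308 CPM in Late ACT and 325 CPM in Late CTL libraries. Summed marker levels of other cell types overlapped between the late groups. They ran from 305 to 322 CPM in Late ACT and 317 to 348 CPM in Late CTL libraries for T cells (7 of 10 markers measured), and from 329 to 404 CPM in Late ACT and 371 to 427 CPM in Late CTL libraries for neutrophils (9 of 10). CD16 monocyte markers (4 of 7) summed to 67.8 to 91.3 CPM in Late ACT and 68.02 to 86.4 CPM in Late CTL libraries, and dendritic cell markers (7 of 8) to 183 to 189 CPM in Late ACT and 176 to 203 CPM in Late CTL libraries. Platelet markers (6 of 7), carried by TUBB1, summed to 354 to 363 CPM in Late ACT and 356 to 426 CPM in Late CTL libraries. The lists of NK cells, B cells, erythroid cells and CD34 progenitors each summed to under 25 CPM in every late library, and the row HBA1 was at 0, while another alpha-globin row, HBA, averaged 12.3 CPM in Late ACT and 14.8 CPM in Late CTL libraries. The part of these markers in the results above was not tested.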

How the data were processed

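RNA-seq was deposited for 12 libraries, with SMART-Seq v4 cDNA and Nextera XT libraries, which do not mark the strand, per the labels' protocols. Per the submitters' processing notes, bcl2fastq and build Mmul_8.0.1 were used; aligner and counter: not given in the sources used here. The deposited table holds the authors' raw counts per gene and library, of 32386 genes.

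Names were available for 15741 genes; the unnamed ones made up 11.5% of counts. Names came mainly from a table of gene names; 418 came only from the authors' deposited tables of late against early libraries, which favour genes that differ between those times. Coordinates come from those tables. Values of the authors' tables (log2 fold changes, p-values, scores and mean counts, as deposited by the authors) were not otherwise used.

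Tests used edgeR 4.0.16 in R 4.3.3 (robust quasi-likelihood F test after TMM scaling and filterByExpr by group) over all 12 libraries with a coefficient per group, and in the 6 late libraries alone, with Benjamini-Hochberg adjustment over all genes and 0.05 as the limit. Each SE was obtained by dividing the size of a log2 fold change by the root of its F. The late response, the early response and their difference were the 3 contrasts. CPM carry no TMM factors unless stated. DESeq2 1.42.0, other scalings, other filters, a replicate term and each library left out were alternatives. The code was tested on simulated data. Library totals ran from 3910680 to 12972505 counts, and PCR reads without molecular identifiers are not independent molecules.

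Same-numbered libraries did not deviate together (correlation of deviations from the group mean -0.106, 0.016 and -0.094 late), so the numbers were not treated as pairs. Named genes were those called in a late fit, the 15 largest changes per direction without overlap, up to 4 members per list, a fixed set of 14 genes and 10 genes with the clearest difference between the times. The members, the 20 pathway and 10 marker lists and these rules were chosen with earlier results of these data known. CXCL8, one of the 14, has no usable name here. The counts share reads between near-identical genes in ways not given, so CCL3, CCL4L1, the IFIT and MHC genes are uncertain to that degree.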

Additional observations from a re-analysis of the deposited data

Results flagged for a closer look

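The stimulation response differed between 19 and 4.5 months for 28 of the 112 named genes, by the test of the difference in edgeR's fit of 12 libraries. Over all genes tested, 167 of 11826 (1.41%) passed. IL6, CSF3, CCL3, CCL4L1, IL1B, TXNIP and the genes without a name listed below were picked for the clearest difference between the times. That these passed follows from the choice, so the count of 28 does not measure how common such differences are. Other list members passed as well, among them MX2 (-0.73) and IRF9 (-0.68). Values are the late minus the early log2 fold change, and no explanation was weighed. Among cytokines it was -2.14 for IL6, -2.13 for CSF3, -1.67 for TNF, -1.65 for IL1B and -1.53 for IL1A. Among chemokines it was -1.83 for CCL3, -1.82 for CCL4L1, -1.80 for CXCL2, -1.45 for CCL2 and -1.10 for CCL7. For genes of inflammasomes, cell death and NF-kB feedback it was -1.46 for NLRP3, -1.08 for PMAIP1 and -0.92 for TNFAIP3. For enzymes and lipid genes it was -1.41 for PTGS2, -1.31 for ASNS, -0.85 for PLIN2 and -0.79 for ACOD1. Among proteases it was -1.31 for MMP10, -0.82 for MMP19 and -0.78 for PLAU. It was -1.40 for the cyclin CCNB1. Of the interferon-stimulated genes, MX1 differed by -1.02 and IFIT5 by -0.88. TXNIP differed by 1.73, its fall being smaller late. Genes without a name in the sources used here were ENSMMUG00000042117 (-1.99), ENSMMUG00000042343 (-1.91), ENSMMUG00000044197 (-1.82) and ENSMMUG00000008367 (-1.66). For MX1, IFIT5, PLAU, MMP19, PLIN2 and, by values close to 0, TNFAIP3 and ENSMMUG00000042117, the late value was below 0 and the early value above it.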

How the results depend on the processing

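The late count of 0 called genes held with RLE scaling, a filter of 5 CPM and the replicate block (0 called). It was 10 in the 6 late libraries alone, 15 with DESeq2, 5 without the low-count filter, 2 with upper-quartile scaling and 4 in the 6 late libraries with the replicate block. With one library left out it ran from 0 to 29. The 10 calls of the 6 late libraries became 4 with the replicate block and 3 to 58 with one library left out. The early count of 855 was 503 in the 6 early libraries alone, 727 with the replicate block and 464 to 1554 with one library left out. The count for the difference of responses, 167, was 312 with DESeq2, 114 with the replicate block and 95 to 546 with one library left out. Late ACT and Late CTL did not overlap for 972 genes, against 631 at a minimum of 20 CPM and 1510 to 2031 with one library left out, where fewer libraries make overlap rarer by construction. Values near 0 changed sign for a few genes without a call: with one library left out, CXCL10 ran from -0.49 to 0.060, CD14 from -0.11 to 0.057, IL10 from -0.018 to 0.13, TNFAIP3 from -0.035 to 0.017 and ENSMMUG00000042117 from -0.035 to 0.032 on the log2 scale. ENSMMUG00000042117 was 0.00037 with the replicate block and 0.00025 with it in the late libraries alone. The cause of these shifts was not tested. Over all named genes and alternatives, 2228 values kept their direction and side of the threshold, 53 newly passed, 32 no longer passed and 11 changed sign. Late CTL 1, at 3910680 counts, limits the precision of genes of a few CPM.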
